A study of Mus musculus with 27 samples.

Results

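The libraries described here are those of neural progenitors in which a wildtype or an SD-domain mutant Nkx2.2 had been switched on, compared directly with each other. They are 5 of the 27 samples of the series, chosen by their labels alone: 3 libraries of the induced wildtype line (iNkx2.2) and 2 of the induced mutant line (iSDmut). Both groups are mouse embryonic stem cells differentiated towards spinal motor neurons, and both carry a FLAG-tagged Nkx2.2 copy behind a doxycycline-inducible promoter, the copy in iSDmut with the SD-domain mutations that the mutant mice of the series also carry. All 5 received doxycycline at 1 µg/ml from late day 3 for about 16 h and were collected on day 4. The uninduced iNkx2.2 line at day 4 (pMN, 3 libraries) enters the model as a further group and gives the level of each gene without induction in that line. The other samples are pancreata and islets of SD-mutant or knockout mice, and Nkx2.2 binding in MIN6, a mouse line of beta cells.

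Each line stands for 1 engineered line, and no uninduced iSDmut library is among the samples analysed here, so the mutation and the line cannot be told apart. The measured Nkx2-2 level was also lower in every iSDmut library than in every iNkx2.2 library, at an adjusted p above 0.05. This level does not separate transgene from endogenous transcripts. The labels do not say whether libraries of a group came from separate cultures, so the p-values measure the spread between these libraries, which may be technical. Same-numbered pMN and iNkx2.2 libraries shared deviations from their group means (correlations 0.71 to 0.75, against -0.65 to -0.17 for other numbers). What a replicate number shares is not given in the labels, and the fit reported has no term for it. In bulk RNA, fewer cells of a type and less RNA per cell cannot be told apart.

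Nkx2.2 is a homeodomain transcription factor of the ventral spinal cord. Sonic hedgehog from the floor plate switches it on in the p3 progenitors, which give rise to V3 interneurons, and there it represses the motor neuron programme of the neighbouring pMN domain, whose progenitors express Olig2 and Pax6. Repression by Nkx2.2 works in part through Groucho (TLE) corepressors bound by its tinman domain. The SD domain is a short motif shared by NK2-family proteins and lies downstream of the homeodomain. The comparison asks which repressed and which activated genes depend on it.

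Library totals ran from 17757991 to 46840701 counts, with iNkx2.2 replicate 1 the deepest and iSDmut at 17795653 and 23613573. Mitochondrial transcripts took 1.66% to 3.10% of counts, the highest share in iSDmut replicate 2. The titles put iSDmut replicate 1 in sequencing lane 2 and replicate 2 in lane 3, iNkx2.2 replicates 1 and 2 in lane 2 and replicate 3 in lane 4. On the second principal component (28.3% of the variance) iSDmut replicate 1 stood at -39.7 and the other 7 libraries between -12.3 and 23.6. The labelled cell type was checked with 8 markers of motor neuron progenitors, all of which had counts: their summed level was 1277 to 1402 CPM (counts scaled to library size, per 1e+06 counts) in pMN, 694 to 814 in iNkx2.2, and 695 and 1036 in iSDmut. Markers of pluripotent cells summed to 11.1 to 30.0 CPM over the 8 libraries and of neural crest to 8.18 to 20.3 CPM. Those of mesoderm summed to 2.63 to 12.3 CPM, with 1 of them, Mesp1, at 0 counts in every library. Those of endoderm summed to 43.7 to 113 CPM.

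Nkx2-2 itself (chromosome 2, 147177546 to 147194243, GRCm38) was at 378, 343 and 343 CPM in iNkx2.2 and at 248 and 245 CPM in iSDmut. The pMN libraries had 11.6, 5.40 and 10.7 CPM. Both iSDmut libraries were below all 3 iNkx2.2 libraries, and the mean in iNkx2.2 was 1.44 times that in iSDmut. The log2 fold change of -0.53 (SE 0.222) was not called (edgeR adjusted p 0.37), and it lay between -0.56 and -0.48 under all 18 alternatives. Every result below therefore compares cells with a mutant protein and a lower measured Nkx2-2 level with cells with a wildtype protein and a higher one, and the part of this level in the results was not tested. Counts per gene do not separate transgene from endogenous transcripts or show the mutated bases.

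Of 15653 genes tested, 44 were called (0.281% of those tested): 25 higher in iSDmut (0.16%) and 19 lower (0.121%). The called increases included the transcription factor genes Neurog2, Pax6, Foxb1 and Pbx3, the kinase gene Stk32a and the protease gene Pappa. The called decreases included the zinc-finger gene Casz1, the guidance gene Slit1 and the calcium channel gene Cacna1g. The median log2 fold change was 1.61 over the called increases, -1.76 over the called decreases and 0.01 over all genes tested. All 44 had iSDmut libraries on 1 side of all iNkx2.2 libraries, as did 31.9% of all genes tested (2430 above and 2560 below). Without adjustment, 1962 genes (12.5%) had a p under 0.05, 660 higher and 1302 lower. The last gene inside the threshold was Spock2 (adjusted p 0.0445, log2 fold change -1.40) and the first outside was Dct (0.0532, 2.38).

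**Figure D1:**
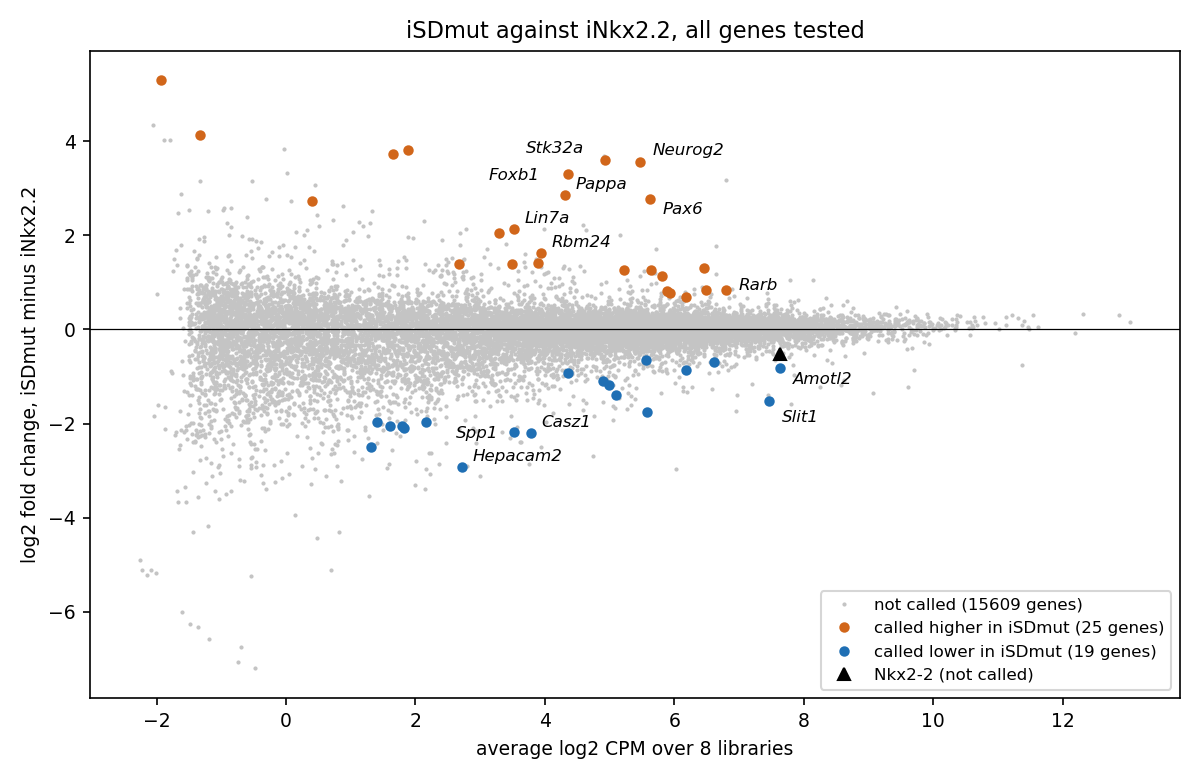
Each point is 1 gene: the x axis is its average log2 CPM over the 8 progenitor libraries and the y axis its fitted log2 fold change, iSDmut minus iNkx2.2. The 25 called increases are orange, the 19 called decreases blue, Nkx2-2 is the black triangle at -0.53, and 10 of the called genes lie below an average log2 CPM of 2.

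The number called varied with single libraries. Leaving out pMN replicate 1, 2 or 3 gave 1, 30 and 20 called genes, leaving out iNkx2.2 replicate 1, 2 or 3 gave 3, 2 and 4, leaving out iSDmut replicate 1 gave 5, and leaving out iSDmut replicate 2 gave 467. In lane 2 alone, where iSDmut is only replicate 1 and its spread is assumed to equal that of the other groups, 243 genes were called, and 26 of the 44 were among them. All 44 genes kept their sign under the 18 alternatives. These refit the same libraries, and genes without overlap between the groups could hardly change sign, so this is not a test of the calls. For the lead genes, the number of alternatives in which the gene was called is given beside it.

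**Figure D2:**
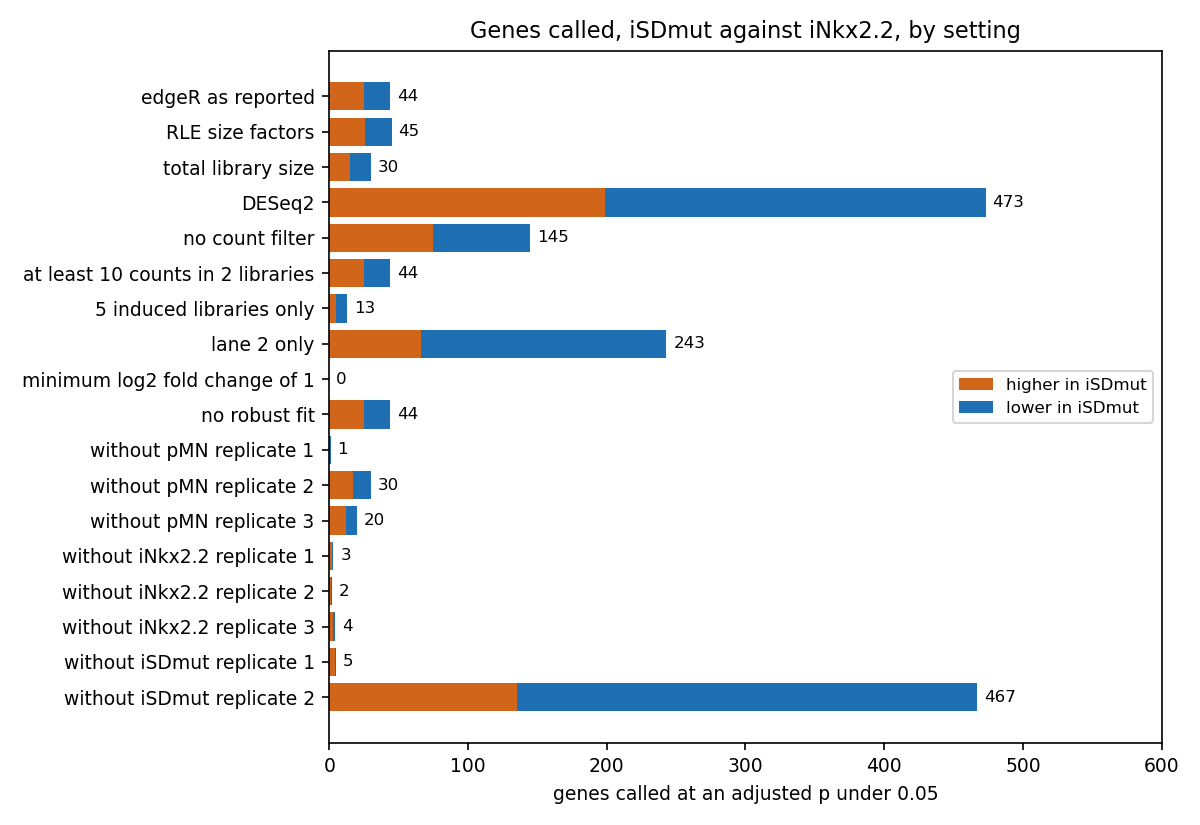
Bars count the genes called at an adjusted p under 0.05 (x axis, from 0) in the fit reported and in each alternative except the one with a replicate term, split into higher (orange) and lower (blue) in iSDmut. The fit reported calls 44, the fit without pMN replicate 1 calls 1, and the fits with DESeq2 and without iSDmut replicate 2 call 473 and 467.

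Progenitor transcription factors were the best-known of the called increases. Neurog2 (chromosome 3, 127633135 to 127635631), a proneural factor of motor neuron progenitors, was at 1.84, 0.81 and 1.13 CPM in iNkx2.2 and at 25.4 and 6.69 CPM in iSDmut, against 116, 98.8 and 105 CPM in pMN. The iSDmut libraries did not overlap either group: they were 12.8 times iNkx2.2 in the mean and below every pMN library. The log2 fold change, iSDmut minus iNkx2.2, was 3.56 (SE 0.497, edgeR adjusted p 0.0304). The gene was called in 7 of 18 alternatives. Without iSDmut replicate 1 its log2 fold change was 2.32 (adjusted p 0.0712), without replicate 2 it was 4.24 (0.000448).

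Pax6 (chromosome 2, 105668900 to 105697364), the homeodomain factor that sets the boundary with the p3 domain, was at 2.61, 2.19 and 2.75 CPM in iNkx2.2 and at 25.1 and 9.77 CPM in iSDmut. In pMN it was at 97.8, 161 and 95.1 CPM. Again the 3 groups did not overlap, with iSDmut in the middle and its replicate 1 the higher. Pax6 differed by 2.77 on the log2 scale (SE 0.384, edgeR adjusted p 0.0304). It was called in 8 of 18 alternatives, with 1.94 (adjusted p 0.122) when iSDmut replicate 1 was left out. An antisense gene, Pax6os1, overlaps Pax6, and reads of these genes cannot be told apart here, since the use of strand is not given.

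Foxb1 (chromosome 9, 69757710 to 69760940), a forkhead factor of the developing nervous system, was at 1.31, 1.25 and 0.94 CPM in iNkx2.2 and at 16.7 and 7.02 CPM in iSDmut. The pMN libraries had 49.3, 44.6 and 43.8 CPM, all above iSDmut. On the log2 scale Foxb1 was 3.31 higher (SE 0.329, edgeR adjusted p 0.0104), and it remained called without iSDmut replicate 1 (2.57, adjusted p 0.00856) and in 13 of 18 alternatives. Pbx3, a homeodomain partner of Hox proteins, differed less: 26.9, 24.2 and 25.4 CPM in iNkx2.2 against 76.0 and 46.7 in iSDmut, with pMN at 65.7, 68.2 and 63.9. Its iSDmut libraries lay on both sides of pMN and above all of iNkx2.2 (log2 fold change 1.26, SE 0.176, edgeR adjusted p 0.0304). The highest adjusted p over the alternatives was 0.102 for Foxb1 and 1.00 for Pbx3.

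Olig2, which defines the pMN domain, had the same order of levels but was not called. It was at 10.5, 2.82 and 4.41 CPM in iNkx2.2, at 87.1 and 25.6 in iSDmut, and at 284, 200 and 277 in pMN. No libraries of the 3 groups overlapped, and the iSDmut libraries differed from each other by a log2 ratio of 1.76. The log2 difference was 3.18 (SE 0.56, edgeR adjusted p 0.0666), and it was called in 3 of 18 alternatives. Sp8, a zinc-finger factor of progenitors, was at 35.7 and 11.1 CPM in iSDmut against 5.02, 5.95 and 5.13 in iNkx2.2 (log2 fold change 2.12, adjusted p 0.0579). Nkx2-9, the close relative of Nkx2-2, was at 13.1 and 9.85 CPM against 4.98, 1.39 and 1.62 (2.00, adjusted p 0.105). Nkx6-1, which is shared by p3 and pMN progenitors, was at 210 and 164 CPM against 247, 166 and 284 (-0.32, adjusted p 0.64), and here the groups overlapped.

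Per transcript length the direction between iNkx2.2 and iSDmut was the same for 5 of the genes above. In the authors' deposited FPKM (fragments per kilobase of transcript, scaled to library size), Nkx2-2 averaged 329 in iNkx2.2 and 215 in iSDmut, Olig2 2.35 and 21.2, Neurog2 0.57 and 6.67, Pax6 0.87 and 5.27, and Nkx6-1 70.6 and 53.5. Nkx2-2 was thus the most abundant of these 5 in iSDmut, followed by Nkx6-1 and Olig2. Neurog2 and Pax6 were neighbours whose iSDmut libraries overlapped in FPKM.

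**Figure D3:**
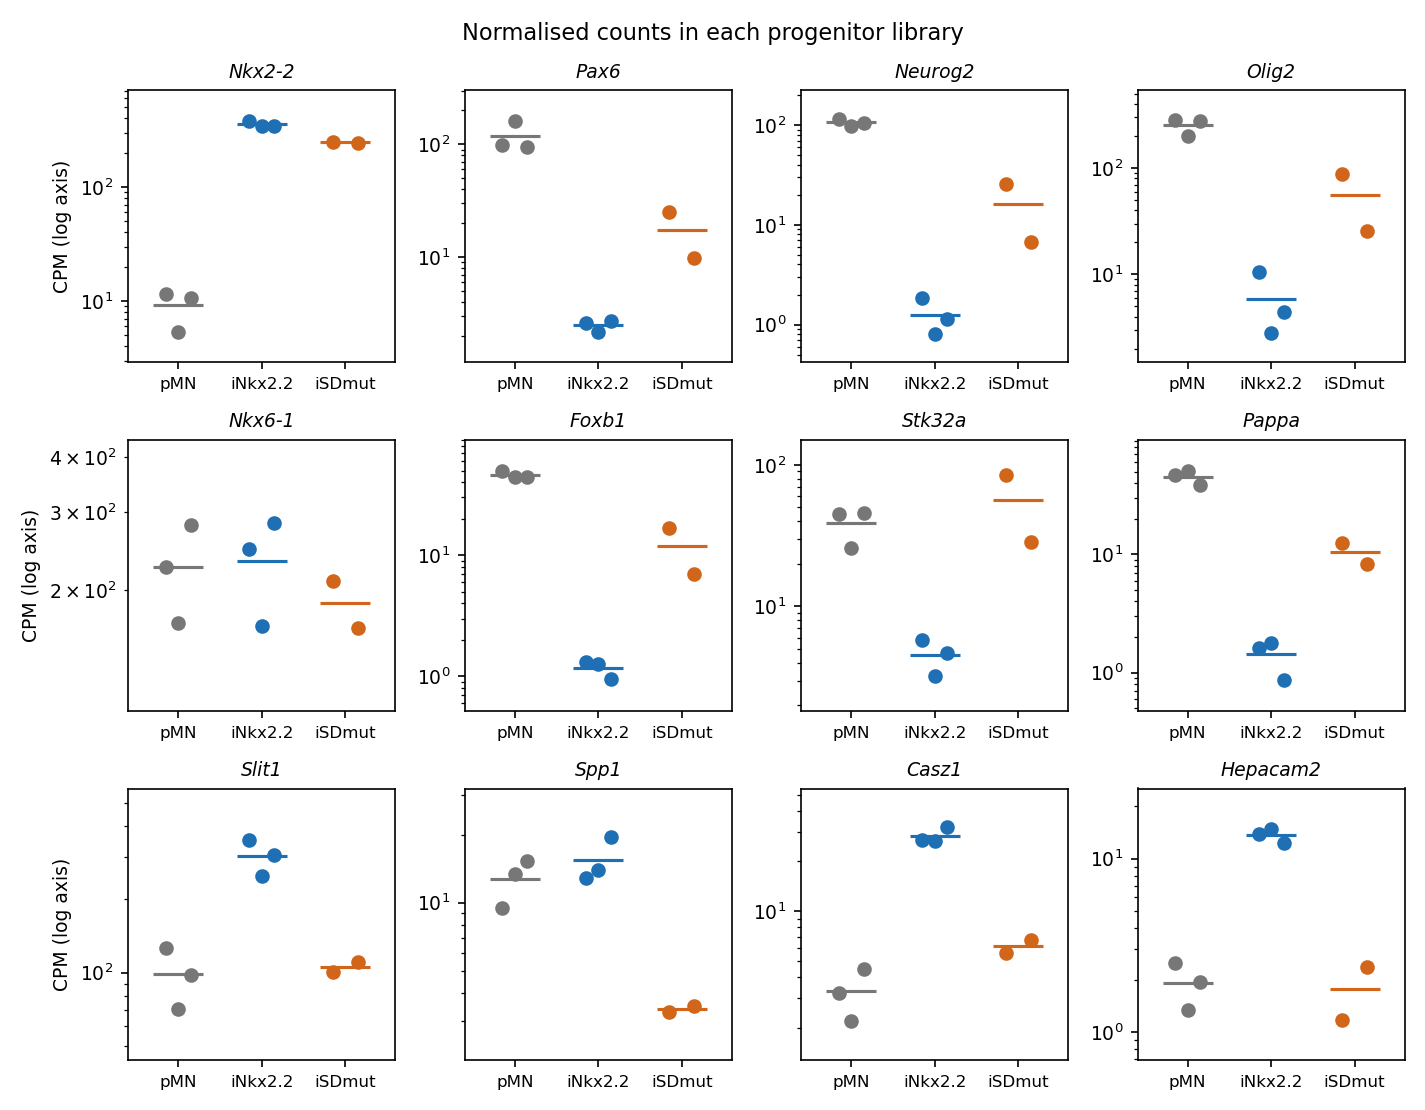
Each panel shows 1 gene as CPM on a log axis, with 1 point per library and a line at the group mean, for pMN (grey), iNkx2.2 (blue) and iSDmut (orange). In the panels of Pax6, Neurog2, Olig2, Foxb1 and Pappa both iSDmut points lie between the other groups, and in the panel of Spp1, at 3.30 and 3.49, they lie below both.

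Other called increases included a kinase and a protease gene. Stk32a (chromosome 18, 43207583 to 43318682), a serine/threonine kinase, was at 5.80, 3.22 and 4.72 CPM in iNkx2.2 and at 85.4 and 28.3 CPM in iSDmut, against 44.8, 25.9 and 45.9 in pMN. The iSDmut libraries lay inside and above the pMN range. The log2 fold change was 3.61 (SE 0.442, edgeR adjusted p 0.0245), called in 9 of 18 alternatives, and 2.61 (0.0655) without iSDmut replicate 1. Pappa (chromosome 4, 65124174 to 65357509), which encodes a protease of insulin-like growth factor binding proteins, was at 1.61, 1.79 and 0.87 CPM in iNkx2.2 and at 12.5 and 8.23 CPM in iSDmut. Its pMN levels were 46.4, 50.8 and 38.4 CPM, so that iSDmut lay apart from both groups. Pappa was 2.85 higher on the log2 scale (SE 0.282, edgeR adjusted p 0.0104) and was called in 14 of 18 alternatives, the most among the increases.

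Lin7a, a scaffold protein of cell junctions and synapses, was at 25.6 and 19.4 CPM in iSDmut against 8.13, 3.45 and 3.58 in iNkx2.2 (log2 fold change 2.13, edgeR adjusted p 0.041). Mfap3l, an immunoglobulin-domain membrane protein, was at 13.3 and 18.9 CPM against 3.39, 3.98 and 4.34 (2.05, 0.0228). Rbm24, an RNA-binding regulator of splicing, was at 34.4 and 38.1 CPM against 13.3, 9.13 and 13.0 (1.61, 0.0256). For Lin7a and Rbm24, both iSDmut libraries were above the pMN libraries too, which were at 9.86 to 11.0 and 4.00 to 6.01 CPM.

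The smaller increases included 3 receptor genes. The retinoic acid receptor gene Rarb was at 165 and 131 CPM against 77.9 to 89.4 in iNkx2.2, the activin receptor gene Acvr2a at 78.8 and 68.8 against 42.4 to 43.5, and the Slit receptor gene Robo2 at 82.0 and 78.1 against 27.4 to 41.9. Their log2 fold changes were 0.85, 0.78 and 1.14 (edgeR adjusted p 0.0384, 0.0256 and 0.0384). Stk39 (kinase, 1.26), Pde1b (cyclic nucleotide phosphodiesterase, 1.38), Sms (spermine synthase, 0.84), Loxl3 (lysyl oxidase family, 1.39) and Acaa2 (mitochondrial thiolase, 0.69) were called as well, with Cachd1 (1.30), Cdca7l (0.81) and 6430548M08Rik (1.42). In 20 of the 25 increases iSDmut replicate 1 was above replicate 2, by a log2 ratio of 1.93 for Neurog2, 1.59 for Stk32a and 1.36 for Pax6.

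The other 5 increases rested on low levels. Fam69c was at 4.09 and 1.87 CPM against 0.04 to 0.37, Cryge, a lens crystallin gene, at 2.41 and 1.33 against 0.22 to 0.34, and Gnat3, the taste G protein gustducin, at 4.76 and 11.9 against 0.45 to 0.76. Gjc3, a connexin gene, had 16 and 17 counts in iSDmut and 2, 1 and 1 in iNkx2.2. Prelp, which encodes a matrix proteoglycan, had 12 and 13 counts against 0, 0 and 1. Fold changes for Gjc3 and Prelp depend on how the fit treats such counts and are not given.

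Among the decreases were a transcription factor and a guidance gene. Casz1 (chromosome 4, 148804429 to 148954889), a zinc-finger transcription factor, was at 26.8, 26.6 and 31.9 CPM in iNkx2.2 and at 5.60 and 6.73 in iSDmut, with pMN at 3.23, 2.18 and 4.49. The iSDmut libraries lay between the groups and nearer to pMN (log2 fold change -2.20, SE 0.266, edgeR adjusted p 0.0245, called in 12 of 18 alternatives). Slit1 (chromosome 19, 41600257 to 41743665), a secreted guidance cue and a member of the floor plate list, was at 352, 251 and 305 CPM in iNkx2.2 and at 101 and 111 in iSDmut, within the pMN range of 70.9 to 127. Its log2 fold change was -1.52 (SE 0.23, edgeR adjusted p 0.0378), called in 9 of 18 alternatives. The ligand Slit1 thus fell and its receptor Robo2 rose in the same libraries.

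Hepacam2 (chromosome 6, 3457096 to 3498298), an immunoglobulin-family protein, had the largest called decrease. It was at 13.8, 14.9 and 12.3 CPM in iNkx2.2 and at 1.18 and 2.37 in iSDmut, overlapping the pMN libraries at 2.50, 1.33 and 1.95. The log2 fold change was -2.92 (SE 0.355, edgeR adjusted p 0.0245, called in 12 of 18 alternatives). Spp1, the secreted phosphoprotein osteopontin, was at 3.30 and 3.49 CPM in iSDmut, below iNkx2.2 (12.8, 14.0 and 19.5) and below pMN (9.46, 13.3 and 15.2). Its log2 fold change was -2.18 (edgeR adjusted p 0.0256).

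Dtx1, a ubiquitin ligase of the Notch pathway that is not on the Notch list used here, was at 1.29 and 1.66 CPM against 5.96 to 7.03 (log2 fold change -2.10, edgeR adjusted p 0.0281), Cacna1g, a T-type calcium channel gene, at 62.2 and 65.5 against 116 to 117 (-0.87, 0.035), and Fgf14, which modulates sodium channels, at 1.06 and 1.33 against 4.48 to 5.81 (-2.06, 0.035). Asb4 (-1.97), Spock2 (a matrix proteoglycan, -1.40), Sipa1 (a Rap GTPase-activating protein, -1.18), Rin2 (-1.10), the nucleoside transporter gene Slc29a1 (-0.94) and the cell cycle phosphatase gene Cdc25b (-0.68) were called too. Further decreases reported here were Gm2381 (-2.49), Adamts16 (-2.06), Atp2c2 (-1.98), Amotl2 (-0.82) and Suox (-0.66), which does not complete the 19.

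The level of the called genes in iSDmut was also set against that in pMN, which is the uninduced iNkx2.2 line, so that line and induction cannot be told apart in it. Of the 25 increases, 22 had an iNkx2.2 mean below pMN. In 9 of these the iSDmut mean was between the groups (Neurog2, Pax6, Foxb1, Pappa, Fam69c, Cryge, Pbx3, Cachd1 and Sms), and in 13 it was above both. The other 3, Rbm24, Loxl3 and Acaa2, were higher in iNkx2.2 than in pMN and higher still in iSDmut. Of the 19 decreases, 17 had an iNkx2.2 mean above pMN, with iSDmut between in 6 (Casz1, Dtx1, Slit1, Rin2, Cacna1g and Suox) and below both in 11, Spp1 among them. Gm2381 and Slc29a1 were below pMN in iNkx2.2 and lower still in iSDmut. Over all genes tested the iSDmut mean was between in 36.8%, above both in 31.9% and below both in 31.3%. These shares are not a like reference, because a called increase cannot lie below both groups and a called decrease cannot lie above both. No share over all genes is given for the side of pMN on which the iNkx2.2 mean lay. The comparisons with pMN use the same iNkx2.2 or iSDmut libraries as the direct one, so these places are a description.

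For the lead genes the 2 comparisons with pMN stand side by side. Their p-values come from the fit without a replicate term, although same-numbered pMN and iNkx2.2 libraries shared deviations. Against pMN, Neurog2 had log2 fold changes of -6.31 in iNkx2.2 (edgeR adjusted p 0.000194) and -2.75 in iSDmut (0.016), and Pax6 had -5.54 (0.000102) and -2.77 (0.00722). Foxb1 had -5.28 (7.06e-05) and -1.96 (0.0108), and Pappa had -4.98 (3.54e-05) and -2.13 (0.00472). These 4 genes were thus called lower than pMN in either induced line, with the smaller log2 value in iSDmut. Stk32a was called lower in iNkx2.2 (-3.06, adjusted p 0.00292) and had 0.54 in iSDmut (0.506). Casz1 had 3.09 in iNkx2.2 (edgeR adjusted p 0.000194) and 0.89 in iSDmut (0.101), and Slit1 had 1.62 (0.00185) and 0.10 (0.839).

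**Figure D4:**
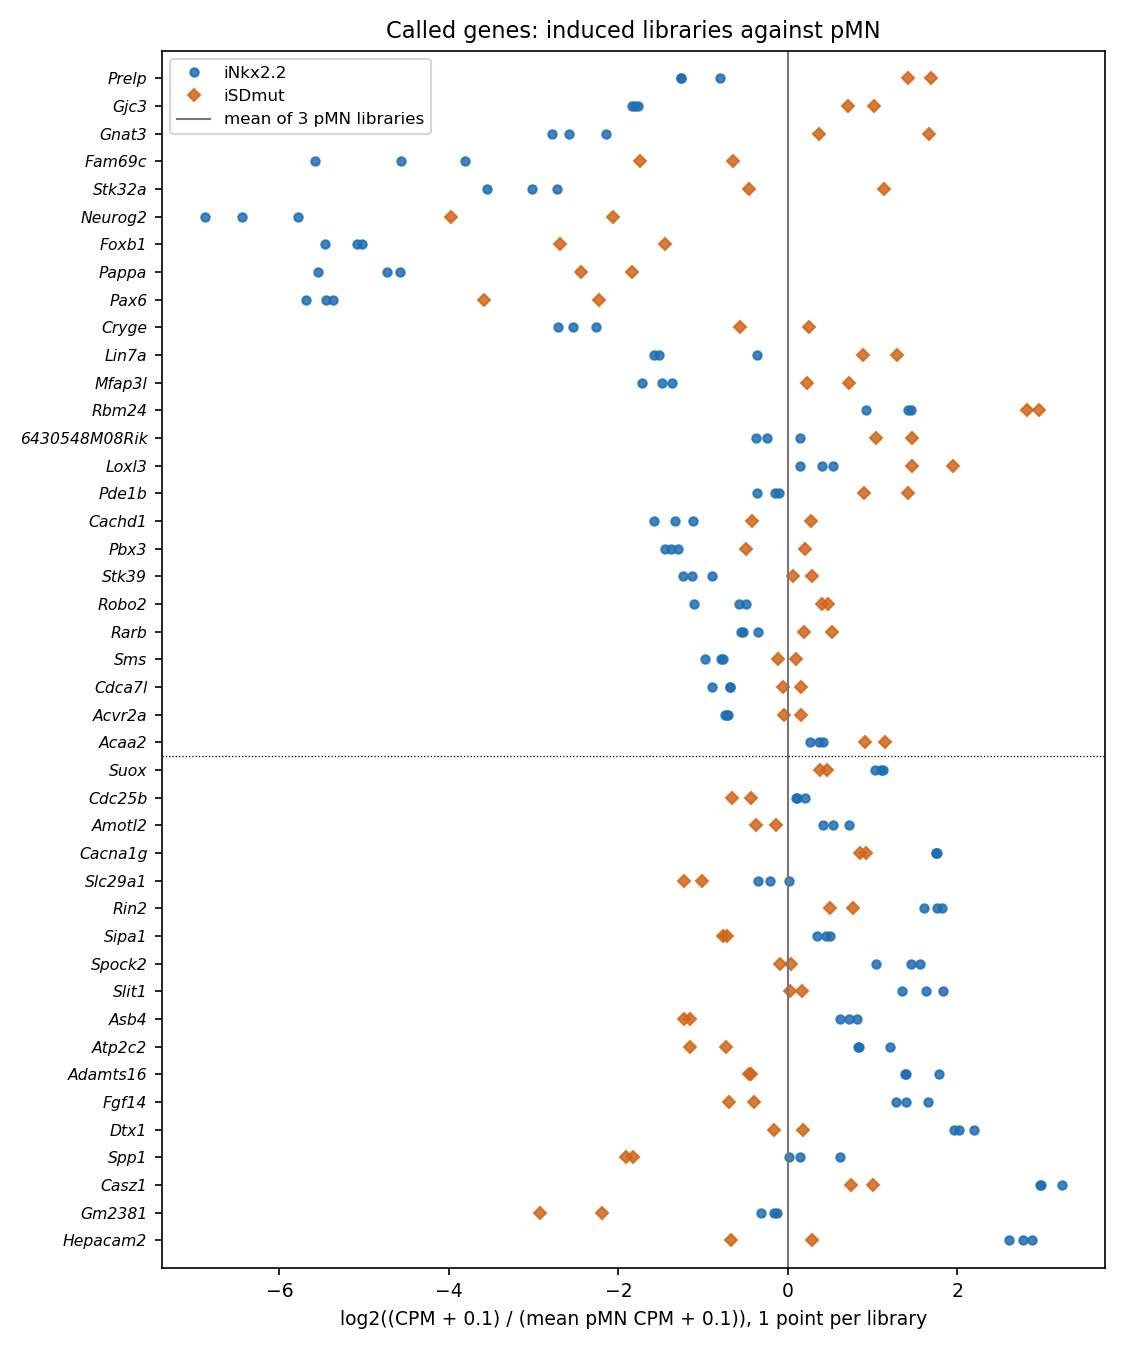
Each row is 1 called gene, each point 1 library, and the x axis is log2((CPM + 0.1) / (mean pMN CPM + 0.1)). The 0 is thus the mean level of the uninduced iNkx2.2 line, and no uninduced iSDmut level is known here. Blue circles are iNkx2.2 and orange diamonds iSDmut; rows above the dotted line are the 25 called increases and rows below it the called decreases that are reported here.

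Gene lists put these calls in the context of ventral patterning. The lists were chosen with results of these data known. Counts in the lists stand against those over all 15653 genes tested. There, 12.5% had an unadjusted edgeR p under 0.05 (660 higher and 1302 lower), and DESeq2 called 473 genes (199 higher and 274 lower). Small counts in a list can be near these shares. Of 20 tested ventral progenitor domain factors (23 listed), 1 was called, Pax6, and 9 were higher and 3 lower at an unadjusted p under 0.05, with a median log2 fold change of 0.36 against 0.01 over all genes. The 3 lower include Nkx2-2, the induced gene itself. Sp8, Olig2 and Foxa2 followed Pax6 by p. DESeq2 called 9 of these factors, 8 higher (Pax6, Olig1, Olig2, Nkx2-9, Irx3, Irx5, Sp8 and Prdm8) and 1 lower (Foxa2). Foxa2, a floor plate factor, was at 29.2 and 55.1 CPM in iSDmut against 104, 90.9 and 102 in iNkx2.2 and 59.6, 52.6 and 67.6 in pMN (log2 fold change -1.23, edgeR adjusted p 0.0804). Irx3, which marks more dorsal progenitors, was at 21.5 and 6.03 CPM against 4.74, 3.09 and 6.75 (1.49, 0.246), and here the groups overlapped.

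Of 11 tested proneural and neurogenic factors, Neurog2 rose, and 2 were higher and 6 lower at an unadjusted p under 0.05 (median log2 fold change -0.52). Neurod4, a downstream neurogenic factor, was at 194 and 219 CPM against 368, 357 and 326 (-0.76, edgeR adjusted p 0.0666), and Hes6 at 35.6 and 38.3 against 61.3, 52.6 and 58.9 (-0.64, 0.0815). Both had all iSDmut libraries below all iNkx2.2 libraries, and DESeq2 called both lower. Of 9 tested floor plate genes, Slit1 was called lower and 5 were lower at an unadjusted p under 0.05 (median -0.72). Netrin-1 (Ntn1), for one, was at 206 and 317 CPM against 360 to 470 (-0.72, edgeR adjusted p 0.19).

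Of 12 tested motor neuron genes 0 were called by edgeR (3 higher by DESeq2: Aldh1a2, Lhx3 and Lhx4), and 4 were higher and 1 lower at an unadjusted p under 0.05 (median log2 fold change 0.68). Lhx3 was at 2.97 and 0.67 CPM against 0.13 to 0.51 (2.30, edgeR adjusted p 0.208), Isl1 at 64.5 and 87.0 against 25.4 to 56.6 (1.00, 0.32), and Mnx1 at 2.69 and 2.66 against 2.95 to 3.33 (-0.21, 0.831). Aldh1a2, the retinoic acid synthesis enzyme, was at 2.69 and 7.44 CPM against 0.74 to 1.43 (2.29, 0.0815). Of 11 tested ventral interneuron genes 0 were called by edgeR (1 lower by DESeq2, Gata2) and 4 were lower at an unadjusted p under 0.05 (median -0.99). The V3 marker Sim1 was at 0.06 and 0.25 CPM against 0.90 to 1.41 (edgeR adjusted p 0.134), with pMN at 0.13 to 0.43.

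In the signalling, corepressor and cell cycle lists 0 genes were called by edgeR. DESeq2 called Gli1, Gli2, Jag1, Tle1 and Cdkn1c higher and Dll3 and Tle6 lower. Of 13 Sonic hedgehog pathway genes, 3 were higher and 1 lower at an unadjusted p under 0.05 (median log2 fold change 0.09): the transcription factor gene Gli2 had 1.33 (edgeR adjusted p 0.0804) and the target Gli1 0.89 (0.135). Of 17 Notch pathway genes, 1 was higher, the ligand gene Jag1 (0.80, edgeR adjusted p 0.0579), and 4 were lower, among them the ligand Dll3 (-0.95, 0.0815) and the target Hey1 (-0.55, 0.248). Of 15 corepressor partners of Nkx2.2, 2 were higher and 4 lower at that level (median -0.17): Tle1 had 0.55 (edgeR adjusted p 0.135), Tle2 -0.65 (0.306) and Tle6 -1.20 (0.197). Of 12 cell cycle genes 1 was higher, the inhibitor Cdkn1c at 637 and 569 CPM against 440, 319 and 372 (0.68, 0.0886), and 1 was lower.

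Further lists had 0 calls by edgeR. At an unadjusted p under 0.05, 4 of 13 pan-neuronal genes were higher (median log2 fold change 0.52), Gap43 leading with 331 and 97.7 CPM against 56.2 to 72.4 (1.78, edgeR adjusted p 0.105). For progenitor maintenance the counts were 3 higher and 2 lower of 12, for Hox genes 3 and 2 of 18, for endocrine genes 1 and 2 of 9, and for stress genes 0 and 0 of 10. Glutamate transporter Slc1a3 led the maintenance list (0.76, edgeR adjusted p 0.0886). DESeq2 called 2 pan-neuronal genes (Gap43 and Nefl), 1 maintenance gene (Slc1a3), 1 endocrine gene (Sst) and 2 Hox genes (Hoxa2 and Hoxd3) higher, 1 Hox gene (Hoxc8) lower, and 0 stress genes.

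Summed levels of markers of other cell types differed between the groups in some lists. Mesoderm markers summed to 8.43 to 10.5 CPM in iNkx2.2 and to 2.63 and 4.70 in iSDmut, without overlap, with 0 of 5 tested called and 2 lower at an unadjusted p under 0.05, and with pMN at 8.79 to 12.3. Endothelial markers summed to 6.85 to 11.5 CPM in iNkx2.2 and 11.6 to 14.2 in iSDmut, with 1 of 5 higher, Kdr (log2 fold change 1.13). Pecam1 (-0.54), Tek (-0.61), Cdh5 (-0.57) and Emcn (-0.01) had values below 0, and the list median was -0.54, so the list as a whole did not rise. The pluripotent list (14.3 to 30.0 against 11.1 to 15.1 CPM, 3 of 6 lower) and the endoderm list (43.7 to 83.2 against 43.9 to 54.5 CPM, 2 of 6 lower) overlapped in sum, as did the neural crest list (13.8 to 20.3 against 8.18 to 15.8 CPM, 0 of 4 at that level) and the oligodendrocyte list (64.5 to 93.2 against 61.8 to 87.3 CPM, 2 higher and 1 lower of 6). Over these 6 lists edgeR called 0 genes, and DESeq2 called Mbp higher and Zfp42 and Meox1 lower. Their part in the calls was not tested.

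Nkx2.2 binding is known here only from MIN6 cells, in which the authors deposited 6473 final sites. Of the 44 called genes, 7 (15.9%) had a site within 50 kb of their start, against 30.5% of the 15351 tested genes with a position, and 7 (15.9%) had a site in the gene body, against 12.8%. Neurog2, Pax6, Foxb1, Casz1 and Slit1 had none in either place. Their nearest sites lay 221, 51.2, 200, 227 and 66.7 kb from the start, in that order. The Pax6 site was thus just outside the window, and the Slit1 site ranked 79 of 6473 by mean log2 CPM. Hepacam2 had sites at 18.3 and 27.4 kb inside the gene, both in introns, and Pbx3 had a pair in introns. The 101 bases around these sites (GRCm38, forward strand, 5′ to 3′) are shown because they are the bound places in the genes of the largest called decrease and of a called transcription factor. Capitals mark matches to TNAAGTG, the core that NK2 homeodomains bind, on either strand (CACTTNA on the strand printed where the match is on the other).
Hepacam2 intron, chr6:3470852-3470952: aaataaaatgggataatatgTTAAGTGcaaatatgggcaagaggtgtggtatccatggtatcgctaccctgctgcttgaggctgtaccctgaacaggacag
Hepacam2 intron, chr6:3479903-3480003: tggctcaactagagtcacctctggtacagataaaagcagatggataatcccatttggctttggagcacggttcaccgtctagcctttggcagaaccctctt
Pbx3 intron, chr2:34288621-34288721: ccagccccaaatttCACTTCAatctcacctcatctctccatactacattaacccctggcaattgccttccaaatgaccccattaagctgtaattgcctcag
Pbx3 intron, chr2:34287076-34287176: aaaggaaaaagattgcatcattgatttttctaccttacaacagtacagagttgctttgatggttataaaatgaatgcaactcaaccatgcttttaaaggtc
The first Hepacam2 site and the first Pbx3 site hold 1 match each and the others hold 0. Over all 6473 sites, 7.79% of the 101-base windows held the core, against 5.62% of windows 1000 bases away.

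Promoters were read from the RefSeq table (GRCm38.p6), in which 31 of the 44 genes matched. TNAAGTG on either strand was found in 4 of 28 promoters of the called increases (18 genes) and in 0 of 23 promoters of the called decreases (13 genes), against 11.5% of all 32851 promoters. Alternative starts of a gene are counted separately, several of them from Slc29a1 among the decreases, so the promoters are not independent. Each promoter covers 250 bases before to 50 after a start. Gnat3 held 2 matches and an alternative start of Mfap3l held 1, both genes called higher in iSDmut than in iNkx2.2. Their 250 bases before the start are shown 5′ to 3′ in the direction of transcription, with the matches in capitals.
Gnat3, chr5:17962320-17962569, plus strand: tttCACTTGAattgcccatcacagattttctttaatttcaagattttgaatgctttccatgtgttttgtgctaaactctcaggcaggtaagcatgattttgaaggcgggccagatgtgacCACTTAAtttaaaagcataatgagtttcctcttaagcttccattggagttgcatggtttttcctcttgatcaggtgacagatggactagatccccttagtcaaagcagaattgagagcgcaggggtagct
Mfap3l, chr8:60654854-60655103, plus strand: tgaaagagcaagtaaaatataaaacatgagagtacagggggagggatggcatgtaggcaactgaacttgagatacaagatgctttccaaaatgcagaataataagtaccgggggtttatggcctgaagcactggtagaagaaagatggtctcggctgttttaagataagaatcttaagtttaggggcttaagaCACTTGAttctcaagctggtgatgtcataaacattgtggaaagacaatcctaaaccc
The Gnat3 matches begin 247 and 130 bases before the start and the Mfap3l match 57 bases before it. A match describes letters in this window and is not a bound site.

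The authors' deposited table of progenitor comparisons lists 1161 genes and calls 70 between iNkx2.2 and iSDmut, 38 higher and 32 lower in iSDmut. It lists 24 of the 44 genes and calls 21 of them. The 3 listed and not called there are Neurog2, Pax6 and Amotl2, with authors' log2 coefficients, iNkx2.2 minus iSDmut, of -3.18, -2.75 and 0.69. For Foxb1 the authors' deposited table gives -3.25 and for Casz1 2.13, both called. Some list genes that edgeR did not call here are called there: Foxa2, Neurod4 and Hes6 lower and Jag1 and Cdkn1c higher in iSDmut. Olig2, Sp8 and Gli2 are listed there and not called.

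In adult islets with the mutation in beta cells, 5 of these genes were also called. The authors' deposited islet table lists 30 of the 44 genes and calls 5 (16.7%), against 8.23% of the 11271 tested genes it lists. Pappa (1.75), Pde1b (0.84), Stk32a (0.78) and Sms (0.64), higher in iSDmut progenitors, are called higher in mutant islets in the authors' deposited table by these log2 values, while Robo2 (-0.69) is called lower there. Of the other listed genes, Pax6 had 0.08, Casz1 0.34, Slit1 0.35 and Hepacam2 -0.01 in that deposited table, none called by the authors. The islet comparison shares no library with the progenitor comparison.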

How the data were processed

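RNA from 8 progenitor libraries was measured as read counts per gene, which the authors deposited without normalization, with a matching FPKM table that was used for levels per length and to check labels (8 of 8 libraries matched). Per the submitters' processing notes, STAR, Cufflinks, edgeR 3.20.9 and limma 3.34.9 are named, with mm10 as build; the counting rule and use of strand are not given in the sources used here. Of the called genes, 17 overlap a gene on the opposite strand and 8 another on the same strand. The authors' deposited tables give log2 coefficients and calls at their p-value threshold. Site positions and log2 CPM in MIN6 cells were deposited by the authors.

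Counts of 39017 genes were filtered (filterByExpr), scaled by TMM and tested with edgeR 4.0.16 in R 4.3.3 (robust quasi-likelihood fit, 3 groups, 5 residual degrees of freedom) with Benjamini-Hochberg adjustment at 0.05 over all genes tested. CPM are TMM-scaled counts per 1e+06; the standard error is the log2 fold change divided by the root of the F statistic. The code of the fit was also run on simulated counts drawn independently for each library. That simulation held no lane, line or replicate effect, so it does not bear on the calls. Positions are from the GENCODE annotation of GRCm38. Depth limits precision at low levels, since 1 count is about 0.02 to 0.06 CPM.

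The members and lists were chosen with earlier results of these data known. Named genes are the called genes, a fixed set of patterning genes, the 8 largest changes per direction where log2 CPM averaged 2 or more, and up to 4 genes per list by smallest p. Some genes that this rule selects are counted but not reported here. Alternatives were RLE factors, total library size, DESeq2 1.42.0, other count filters, the 5 induced libraries, a replicate block, lane 2, a minimum log2 fold change of 1, a fit without robust estimation, and leaving out each library.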

Additional observations from a re-analysis of the deposited data

Results flagged for a closer look

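The induced iSDmut and iNkx2.2 libraries, which differ in line and Nkx2-2 level as well as in the mutation, differed by a direct test for 44 genes (edgeR quasi-likelihood test, adjusted p under 0.05), 25 higher and 19 lower in iSDmut. The number rests on 2 iSDmut libraries, and it was 5 without replicate 1 and 467 without replicate 2.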

How the results depend on the processing

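Against 44 called genes (25 higher, 19 lower), edgeR called 45 with RLE factors, 30 (15 and 15) with total library sizes, 145 (75 and 70) without a count filter and 13 (5 and 8) with the 5 induced libraries alone. DESeq2 called 473 (199 and 274), and lane 2 alone 243 (66 and 177). The share of calls that were higher was 56.8% as reported, 42.1% with DESeq2, 27.2% in lane 2, 38.5% with the 5 induced libraries and 28.9% without iSDmut replicate 2. Against a minimum log2 fold change of 1, edgeR called 0 genes (0 higher and 0 lower), with 352 at an unadjusted p under 0.05. Fits that each left out 1 library called 1 to 467 genes, 0 to 135 higher and 1 to 332 lower. The cause of these shifts was not tested. Where a library was left out of iSDmut, the lone library was assumed to vary like the other groups.

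With the replicate number as a block, 528 genes were called (280 and 248), 42 of the 44 among them; the others were Pax6 (adjusted p 0.145) and Neurog2 (0.0554). Deviations from the group means correlated at 0.38 and 0.13 between same-numbered iNkx2.2 and iSDmut libraries (2 shared numbers). With 2 iSDmut libraries these deviations are mirror images, so each value recurs with the other sign for the other iSDmut library. The differently numbered iNkx2.2 replicate 3 and iSDmut replicate 2 were at 0.18. Between pMN and iNkx2.2 the same-numbered libraries were at 0.71, 0.74 and 0.75 and the others between -0.65 and -0.17. The iSDmut numbers were not taken as pairs.

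Of the log2 fold changes of 106 genes, 2 changed sign: Nkx6-1 was at 0.0213 in lane 2, and Sox9 was at -0.0609 without iSDmut replicate 1 and at 1.45 without replicate 2. The 44 called genes kept their sign in all 18 alternatives, which could hardly be otherwise for genes without overlap between the groups. Depth limits genes such as Prelp and Gjc3, with at most 2 counts in an iNkx2.2 library.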
